A study of Homo sapiens with 4 samples.

Results

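The genes described here are the CDK inhibitors, the G1 cyclins and RB1 as measured by RNA sequencing in RKO cells, a human colorectal cancer line. Members were taken as the entries of the deposited count and FPKM (fragments scaled by transcript length and by library size) matrices that carry the symbols CDKN1A, CDKN1B, CDKN1C, CDKN2A, CDKN2C, CCND1, CCND3, CCNE1, CCNE2 and RB1. All 10 were present among 15357 listed genes, and 9 of them passed the filter on low counts that left 11955 genes for testing. The cells carried stable lentiviral shRNA, either a control shRNA (labelled vector, 2 samples) or shRNA-2 against the chromatin remodeller CHD7 (labelled shCHD7_2, 2 samples), and were grown in serum without further treatment. Poly(A) RNA was captured with oligo-dT beads. The knockdown is represented by 1 hairpin, so an effect of this hairpin and an effect of lower CHD7 cannot be told apart. The labels do not say whether the 2 samples of a group were separate cultures. The p-values set a difference between groups against the spread within groups, which may therefore be technical.

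Entry into S phase is governed by cyclin-dependent kinases. D-type cyclins with CDK4 or CDK6, and then E-type cyclins with CDK2, phosphorylate the retinoblastoma protein RB1, which releases E2F transcription factors from repression. CIP/KIP inhibitors (CDKN1A, CDKN1B, CDKN1C) bind cyclin-CDK complexes, whereas INK4 inhibitors (CDKN2A, CDKN2B, CDKN2C, CDKN2D) bind CDK4 and CDK6 themselves. In colon epithelium CDKN1A accompanies the exit of cells from the proliferating crypt.

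CDKN1A, the gene of p21, was the member that rose after CHD7 knockdown by a wide margin, to about double its control level. CCNE1, the gene of cyclin E1, rose by a smaller amount that passed the test but not the fold threshold. The other inhibitors, both D cyclins among the members, CCNE2 and RB1 did not pass the test, and CDKN2A was close to silent in all 4 samples.

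The sequences upstream of CDKN1A and CCNE1 are shown because these are the members that passed the test. Each was read from the RefSeq promoter windows (GRCh38.p14, plus strand, 5′ to 3′) from 250 bases before the annotated start up to the first base that GENCODE 29 places in an exon of the same gene. Capitals mark the GC box GGGCGG and the E-box CAGCTG, on either strand.
CDKN1A, chr6:36678464-36678657: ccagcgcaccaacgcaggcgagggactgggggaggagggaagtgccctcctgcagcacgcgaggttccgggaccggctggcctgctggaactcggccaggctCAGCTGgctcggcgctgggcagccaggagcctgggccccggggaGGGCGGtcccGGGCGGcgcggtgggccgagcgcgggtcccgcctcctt
CCNE1, chr19:29811741-29811897: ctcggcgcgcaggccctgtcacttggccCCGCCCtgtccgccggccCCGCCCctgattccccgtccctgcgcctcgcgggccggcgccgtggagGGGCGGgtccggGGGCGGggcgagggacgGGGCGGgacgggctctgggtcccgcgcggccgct

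The CDKN1A stretch of 194 bases lies within the span of the GENCODE gene, between its more distal and its proximal first exons, and its distal end is covered by an exon of the antisense RNA DINOL. It holds 2 GC boxes and 1 CAGCTG word. The CCNE1 stretch of 157 bases lies upstream of the gene and holds 5 GC boxes and no CAGCTG. Over the whole 250-base windows, CDKN1A had 27 CpG dinucleotides and CCNE1 had 39, against a median of 11 over 35114 RefSeq windows. At least 1 GC box was present in 42.6% of all windows and CAGCTG in 14%. The TATA word TATAAA, found in 10.7% of windows, and the E-box CACGTG, found in 6.35%, were in neither window, and neither were the E2F words TTTCCCGC, TTTCGCGC, TTTGCCGC and TTTGGCGC, of which at least 1 was found in 2.79% of windows. These are matches of letters only, and no binding was measured.

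The libraries held 15734679 to 16068650 estimated counts. CHD7 itself had 1326 and 1436 counts with the control shRNA against 890 and 800 with CHD7 shRNA-2. It fell by 0.74 on the log2 scale (SE 0.0884, edgeR adjusted p = 4.15e-06), so the labels and the targeted gene point the same way. In FPKM it went from 8.28 ± 0.318 to 5.50 ± 0.219 (SD, n = 2 each), and in limma on filtered FPKM its change was under 1.5-fold (-0.51 with FPKM + 1 and -0.58 with FPKM + 0.1) with adjusted p = 0.0054 and 0.00575. Of 10 colon epithelial markers, 7 were listed and their summed FPKM was 75.3 to 81.2 in control and 81.6 to 90.3 in knockdown samples. KRT8, KRT18, EPCAM and CDX2 made up nearly all of that sum. KRT20 and CDH1, which define differentiated and adherent colon epithelium, were at or near 0. LGALS4 was also near 0, at no more than 0.07 FPKM, and KRT19, VIL1 and CDX1 were not listed. Listed fibroblast, immune and endothelial markers (2 each) summed to at most 0.34 FPKM for any list in any sample.

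CDKN1A lies on chr6:36676460-36687339 (GRCh38, GENCODE 29). Its estimated counts were 1983 and 1776 with the control shRNA and 3905 and 4023 with CHD7 shRNA-2. As CPM, counts scaled by library size with edgeR's TMM factors, these were 127.7 and 112.5 against 243.5 and 252.1. Both knockdown samples lay far above both controls, and the gap between the groups was several times the gap within either. The mean rose from 120.1 ± 10.8 to 247.8 ± 6.08 CPM (SD, n = 2 each), a log2 fold change of 1.05 (SE 0.0802, 95% interval 0.88 to 1.21, 2.06-fold, edgeR adjusted p = 4.66e-09). Ordered by p-value it was gene 16 of 11955. Exons of genes on the other strand overlap those of CDKN1A (DINOL), CCND1 (LTO1), CCND3 (AL513008.1) and CCNE2 (INTS8), and since the use of strand in counting is not given, reads of such partners cannot be told apart from theirs. In bulk RNA, more cells with CDKN1A transcripts and more transcripts per cell cannot be told apart.

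A gene was called when its adjusted p was under 0.05 and its fold change at least 1.5, and 344 of the 11955 tested genes, or 2.88%, met both. CDKN1A was the 1 called among the 9 tested members. By adjusted p alone 2 of the 9 passed, CDKN1A and CCNE1, both higher, against 1373 genes or 11.5% of all tested. The CPM of the groups did not overlap for 6 of the 9, against 53.7% of all tested genes. The median log2 fold change of the 9 was 0.13, and that of all tested genes 0.000557. With 2 samples against 2, an exact two-sided permutation test of a single gene cannot go below p = 0.333. Every test here combines the spread of a gene's own samples with that of the other genes.

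**Figure D1:**
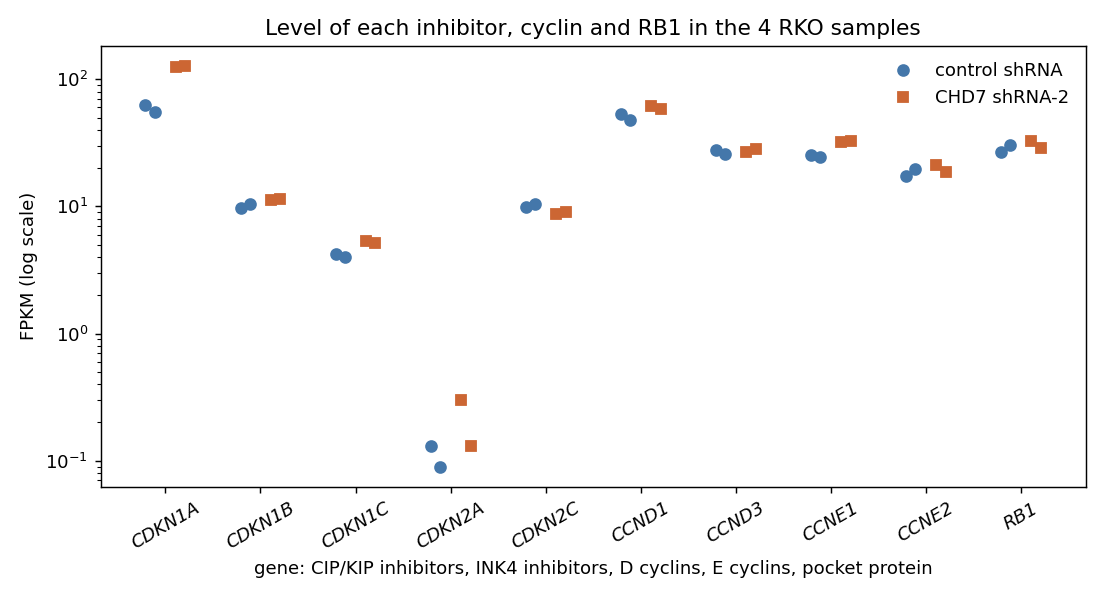
Level of each member in the 4 RKO samples, in FPKM on a log axis, with 1 point per sample (circles control shRNA, squares CHD7 shRNA-2). CDKN1A is the member with the widest gap between groups, and CDKN2A lies at 0.09 to 0.30 FPKM, far under the other members.

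The remaining CIP/KIP inhibitors had small differences. CDKN1B (chr12:12715058-12722371), the gene of p27, which restrains CDK2 in resting cells, had 23.13 and 25.27 CPM in the controls and 26.07 and 26.82 in the knockdown samples. The groups did not overlap, but the gap between them was smaller than the spread of the controls, and the log2 difference was 0.13 (95% interval -0.08 to 0.34, edgeR adjusted p = 0.474). That value was 0.06 without the first and 0.19 without the second control sample. CDKN1C (chr11:2883213-2885773), the imprinted gene of p57, had 6.18 and 6.59 CPM against 7.73 and 7.83. Here the groups were well apart relative to their spread, yet at 96 to 125 counts the interval was wide, from -0.05 to 0.62 around 0.29 (edgeR adjusted p = 0.288). A change in CDKN1C of the size of the 1.5-fold threshold therefore lies within what these samples allow, whereas for CDKN1B it lies outside the interval from all 4 samples.

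CDKN2A was the inhibitor that was close to silent. The locus (chr9:21967753-21995301) encodes p16, an inhibitor of CDK4 and CDK6, and from another first exon p14ARF, and the gene-level counts do not separate the 2 products. It had 2 and 1 counts in the controls and 4 and 2 after knockdown. The FPKM values were 0.13 and 0.09 against 0.30 and 0.13, so the groups overlapped at the second knockdown sample. In these libraries 3 counts correspond to 0.187 to 0.193 CPM, and CDKN2A had 0.06 to 0.25 CPM. It was not tested, and no fold is given for counts this low. An exon of the antisense RNA CDKN2B-AS1 overlaps the locus, and because the use of strand in counting is not given, the few counts cannot be assigned to either. The 250 bases upstream of the start of p16 held 20 CpG dinucleotides and those upstream of the other start 24.

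CDKN2C (chr1:50960745-50974633), the gene of the INK4 inhibitor p18, had 14.62 and 14.19 CPM in control and 12.29 and 13.16 CPM in knockdown samples. Both knockdown samples were lower, by 0.18 on the log2 scale on average (95% interval -0.45 to 0.09, edgeR adjusted p = 0.427), and it was 1 of 2 tested members with a negative value. The INK4 genes outside the member list stood on either side of it. CDKN2B, the neighbour of CDKN2A, had 305 and 297 counts against 261 and 225 (log2 fold change -0.34, edgeR adjusted p = 0.0765), and CDKN2D had 82 and 91 against 97 and 118 (0.28, adjusted p = 0.343). The summed FPKM of the 4 INK4 genes was 20.29 and 21.28 in the controls and 19.53 and 20.25 in the knockdown samples, which did not overlap but nearly met. CDKN2A thus contributed almost none of the INK4 transcript in these cells, and its neighbour CDKN2B, at 3.81 to 5.21 FPKM, was not silent.

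Among the D cyclins, CCND1 (chr11:69641087-69654474), the mitogen-induced partner of CDK4 and CDK6, had 221.6 and 200.4 CPM in control and 250.3 and 239.7 CPM in knockdown samples. Its groups did not overlap, and the log2 difference of 0.22 (95% interval 0.06 to 0.37) missed the threshold after adjustment over all genes (edgeR adjusted p = 0.0727). Leaving out 1 sample in turn gave differences from 0.14 to 0.29. With library totals in place of TMM factors the difference was 0.26 (edgeR adjusted p = 0.0289). DESeq2 gave 0.22 (adjusted p = 0.116), and edgeR with no filter on low counts gave 0.21 (adjusted p = 0.214). CCND1 therefore stood close to the threshold, and its side changed with the processing.

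CCND3 (chr6:41934933-42050357), the D cyclin prominent in lymphoid and differentiating cells, had 52.82 and 49.73 CPM against 49.64 and 52.77, and the groups overlapped almost entirely. The log2 difference was -0.0018 (95% interval -0.19 to 0.18, edgeR adjusted p = 0.993), so a change of 1.5-fold in either direction lay outside the interval. CCND2, the third D cyclin, is no member of the list. It had 3149 and 2929 counts in control and 2626 and 2404 in knockdown samples and fell by 0.30 on the log2 scale (SE 0.079, edgeR adjusted p = 0.0129), short of the fold threshold. Without the first control sample its value was -0.24 with adjusted p = 0.243, and without the second knockdown sample -0.25 with adjusted p = 0.0584. Summed over all 3 D cyclins, FPKM was 112.2 and 102.2 in control and 114.9 and 110.8 in knockdown samples, which overlapped.

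CCNE1 (chr19:29811898-29824308), whose product activates CDK2 at the end of G1, had 692 and 679 counts in control and 883 and 906 in knockdown samples. In CPM the values were 44.58 and 43.01 against 55.07 and 56.78, with tight groups that did not overlap. It rose by a log2 fold change of 0.35 (SE 0.0876, 95% interval 0.17 to 0.53, 1.28-fold, edgeR adjusted p = 0.0096), under the 1.5-fold threshold, and was gene 686 by p-value. Leaving out either control sample raised its adjusted p above 0.05, with 0.38 and adjusted p = 0.059 without the first and 0.33 and adjusted p = 0.159 without the second. CCNE2, which encodes the closely related cyclin E2, had 45.28 and 50.42 CPM against 53.07 and 47.13. Its groups overlapped, and the log2 difference was 0.07 (95% interval -0.13 to 0.26, edgeR adjusted p = 0.711). Whether the 2 E cyclins differed from each other in their response was not tested.

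RB1 (chr13:48303726-48599436), the pocket protein that these kinases inactivate, had 121.9 and 136.2 CPM in control and 142.8 and 126.2 CPM in knockdown samples. The groups overlapped, with a log2 difference of 0.06 (95% interval -0.12 to 0.24, edgeR adjusted p = 0.715). At 1892 to 2289 counts a sample, RB1 transcript was plainly present in these cells, and these data hold no measure of its phosphorylation.

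**Figure D2:**
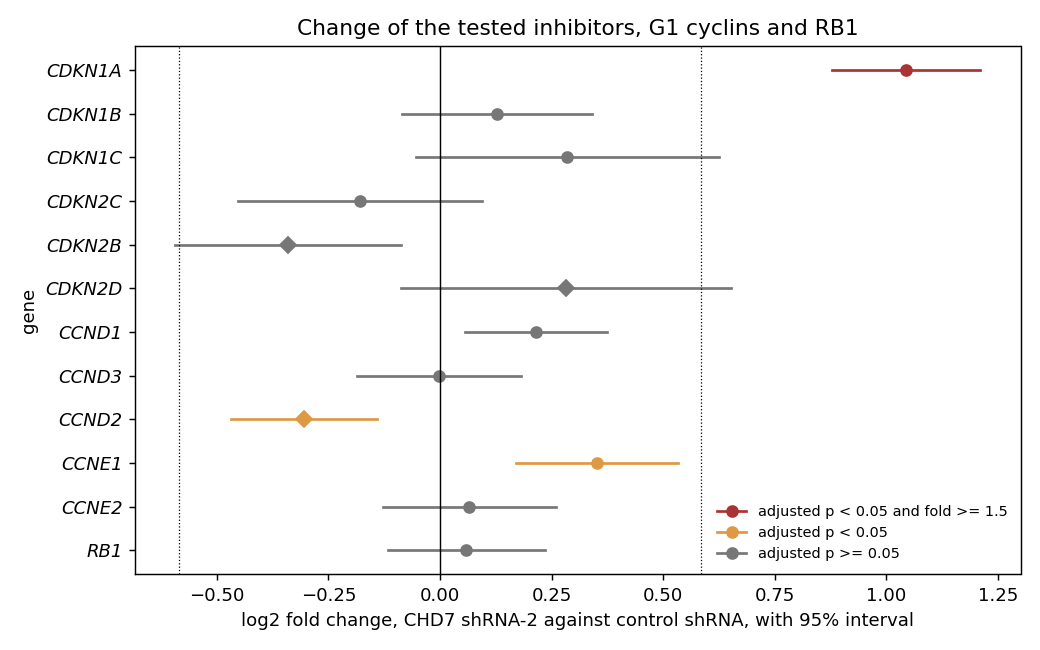
Log2 fold change of CHD7 shRNA-2 against control shRNA for the 9 tested members (circles) and CDKN2B, CDKN2D and CCND2 (diamonds), with 95% intervals from edgeR and dotted lines at a 1.5-fold change. CDKN1A, at 1.05, is the gene whose interval lies wholly beyond a dotted line.

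Compared per length, in FPKM, the members covered a wide range of levels. By mean FPKM over the 4 samples the order was CDKN1A (92.4), CCND1 (55.3), RB1 (29.8), CCNE1 (28.8), CCND3 (27.2), CCNE2 (19.2), CDKN1B (10.7), CDKN2C (9.53), CDKN1C (4.65) and CDKN2A (0.162). The sample ranges of CDKN1A and CCND1 overlapped, as did those of RB1, CCNE1 and CCND3, and those of CDKN1B and CDKN2C. CDKN1A already had 62.97 and 55.35 FPKM in the control samples, near the 52.94 and 47.73 of CCND1, and reached 124.12 and 127.16 in the knockdown samples, where CCND1 had 61.79 and 58.66. Averaged over the samples it stood at or above 94.6% of all listed genes. CDKN2A stood at 20.4% on the same scale, and the other inhibitors between 40.9% for CDKN1C and 56.8% for CDKN1B.

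Taking the inhibitors as a group, the summed FPKM of the 5 was 86.86 and 80.43 in control and 149.7 and 152.9 in knockdown samples. CDKN1A made up 72.5% and 68.8% of that sum in the controls and 82.9% and 83.2% after knockdown. The 4 cyclins summed to 123.5 and 117.6 FPKM in control and 142.1 and 138.5 in knockdown samples. Inhibitor transcript per cyclin transcript was thus 0.703 and 0.684 in the controls and 1.05 and 1.10 in the knockdown samples, and the groups did not overlap. Which sum was the larger after knockdown depended on the genes included. With CCND2 added, the 5 cyclins summed to 155 and 146.3 FPKM in control and 168.3 and 162.4 in knockdown samples, and the ratio was 0.561 and 0.55 against 0.889 and 0.941, higher after knockdown but under 1 in every sample. With CDKN2B and CDKN2D also added to the inhibitors, it was 0.627 and 0.623 against 0.952 and 1.01. These wider sums were chosen after seeing the data. The inhibitor sum rests mostly on CDKN1A, and protein levels, which also depend on degradation, were not measured here. CDKN1A exceeded CDKN1B by 6.53 and 5.26 times in the controls and by about 11 and 11.1 times in the knockdown samples. For the E cyclins the ratio of CCNE1 to CCNE2 was 1.46 and 1.25 against 1.52 and 1.76.

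**Figure D3:**
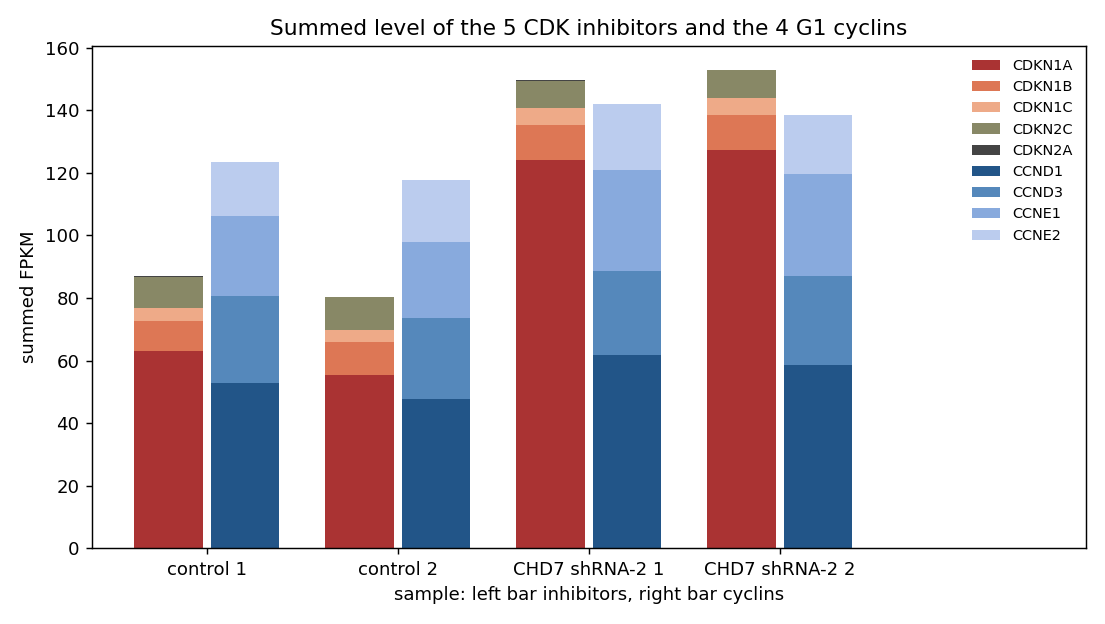
Summed FPKM of the 5 CDK inhibitors (left bar) and the 4 cyclins (right bar) in each sample, stacked by gene. The inhibitor bar is the shorter in both control samples (86.86 and 80.43) and the taller in both knockdown samples (149.7 and 152.9), with CDKN1A as its largest block. CCND2 is not drawn, and with it the cyclin sum is the larger in every sample (168.3 and 162.4 in the knockdown samples).

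The genes around the members were described from 6 lists of 72 genes, all of which were tested. Of these 5 were called, 1 higher and 4 lower, and 12 passed the adjusted p alone, 4 higher and 8 lower, against 2.88% and 11.5% of all tested genes. The median log2 fold change was 0.00408. Without the first knockdown sample 3 genes of the lists were called.

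Of 7 kinases and activators, CDK6, a partner of the D cyclins, was called. It had 1080 and 1164 counts in control and 2045 and 1640 in knockdown samples, a log2 fold change of 0.68 (SE 0.0953, edgeR adjusted p = 3.35e-05), and its knockdown samples stood well apart from each other. Without the first of them the value was 0.52, under the fold threshold. CDK4, the other D cyclin kinase, did not pass, at -0.06 (adjusted p = 0.678). CDK2, the kinase of the E cyclins, had 1493 and 1507 counts against 1174 and 1209 and fell by 0.36 on the log2 scale (SE 0.0824, edgeR adjusted p = 0.00492). MNAT1, a subunit of the kinase that activates CDKs, fell by 0.40 on the log2 scale (SE 0.0885, edgeR adjusted p = 0.00414). Both missed the threshold in some subsets, where CDK2 had adjusted p = 0.0582 without the first and 0.0614 without the second control sample, and MNAT1 had 0.128 without the second control sample.

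Of 18 pocket proteins, E2F factors and DREAM subunits, TFDP1, the dimer partner through which E2F factors bind DNA, was called. It had 2192 and 2110 counts in control and 1386 and 1302 in knockdown samples and fell by 0.71 on the log2 scale (SE 0.0815, edgeR adjusted p = 2.23e-06). The groups were far apart, and the value stayed between -0.76 and -0.67 when any 1 sample was left out. E2F7, a repressor of E2F targets, rose by 0.33 (SE 0.09, edgeR adjusted p = 0.0176) and MYBL2, which acts with the MuvB core, rose by 0.34 (SE 0.0878, adjusted p = 0.0118). E2F7 missed the threshold without either control sample (adjusted p = 0.0851 and 0.187) or without the first knockdown sample (0.15), and MYBL2 missed it without the second control sample (0.253). The other 15 did not pass, E2F1 among them at 0.26 (adjusted p = 0.104).

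Of 15 subunits and receptors of ubiquitin ligases that act on G1 regulators, CUL4B, a scaffold of the ligases that include one for CDKN1A protein, was called. It had 1077 and 1151 counts in control and 756 and 667 in knockdown samples and fell by 0.68 on the log2 scale (SE 0.0904, edgeR adjusted p = 2e-05), with no overlap. CUL4A, DDB1 and DTL, also parts of such ligases, did not pass. Their log2 differences were -0.15 (edgeR adjusted p = 0.218), -0.05 (0.725) and 0.11 (0.436). CUL4A had 176.6 CPM in control and 159.2 in knockdown samples on average, against 71.14 and 44.47 for CUL4B. CKS1B, the cofactor of SKP2 in the turnover of CDKN1B protein, fell by 0.32 on the log2 scale (SE 0.0832, edgeR adjusted p = 0.013), and missed the threshold without the first (0.0816) or the second control sample (0.178). SKP2 itself did not pass, at -0.15 (adjusted p = 0.279).

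Of 22 E2F target genes, 20 did not pass and the median was 0.05. TYMS, thymidylate synthase, was called lower, with 1640 and 1615 counts in control and 1031 and 1158 in knockdown samples (log2 fold change -0.60, SE 0.0864, edgeR adjusted p = 4.73e-05). That value was close to the fold threshold and was under it without the first control sample (-0.58) or the first knockdown sample (-0.52). It was also under it with library totals in place of TMM factors (-0.56). In limma on filtered FPKM it was -0.55 with FPKM + 1 and -0.56 with FPKM + 0.1, again under the threshold. RRM2, a subunit of ribonucleotide reductase, went the other way and rose by 0.28 (SE 0.0736, edgeR adjusted p = 0.0143). RRM2 missed the threshold without the first control (adjusted p = 0.192), the second control (0.155) or the first knockdown sample (0.055). PCNA and CCNA2 did not pass, at 0.22 (adjusted p = 0.0575) and 0.18 (adjusted p = 0.178).

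Of 7 regulators of CDKN1A transcription, TFAP4, a factor that binds CAGCTG and is known as a repressor of CDKN1A, was called lower. It had 454 and 367 counts in control and 237 and 252 in knockdown samples, a log2 fold change of -0.78 (SE 0.123, edgeR adjusted p = 0.000142). The groups did not overlap, although the control samples differed from each other, and the value was -0.61 without the first and -0.94 without the second control sample. The CDKN1A window printed above holds 1 copy of CAGCTG, and whether TFAP4 bound it was not measured. MDM2, a ubiquitin ligase, had 2593 and 2760 counts in control and 3155 and 2821 in knockdown samples (log2 fold change 0.13, edgeR adjusted p = 0.326). MYC, a repressor of CDKN1A, had 7578 and 7535 counts against 7457 and 7678 (-0.03, edgeR adjusted p = 0.839).

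**Figure D4:**
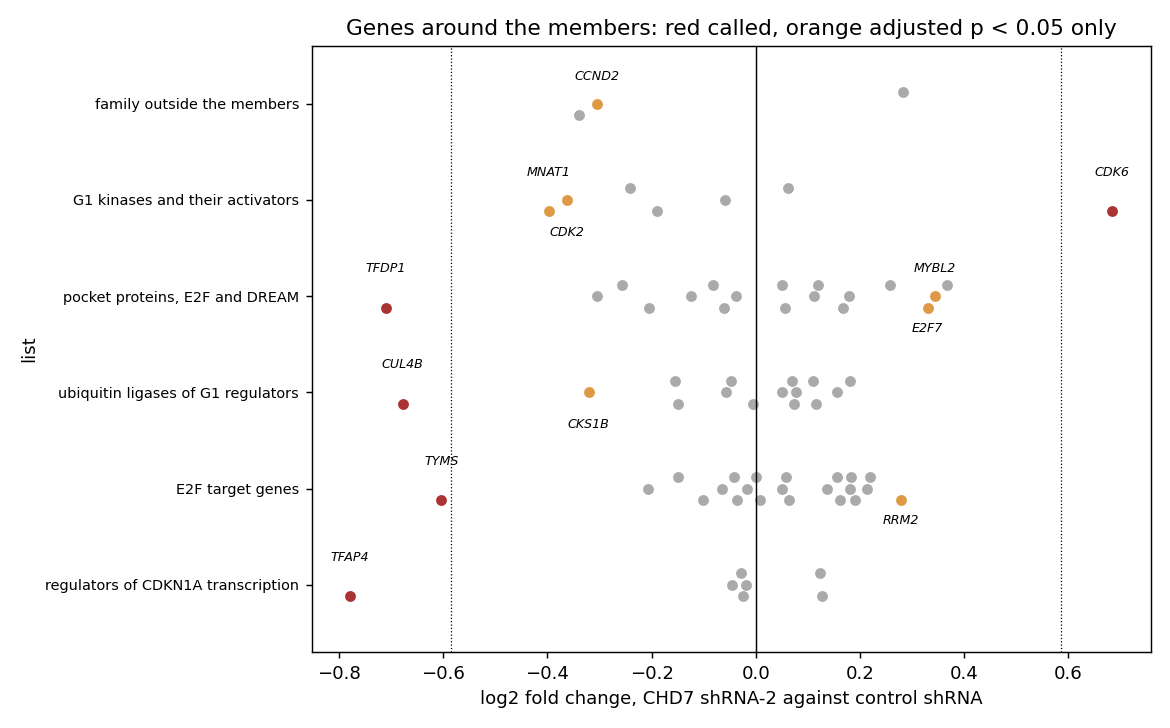
Log2 fold change of the 72 genes of the 6 lists, 1 point per gene, with dotted lines at a 1.5-fold change. The 5 called genes are CDK6 to the right and TFDP1, CUL4B, TYMS and TFAP4 to the left, and most points of every list lie between the dotted lines.

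Among the genes whose pattern over the 4 samples was most like that of CDKN1A were TRIML2 and TIMP2, with root mean square differences in centred log2 CPM of 0.0227 and 0.0349. TIMP2, an inhibitor of matrix metalloproteinases, had 93 and 88 counts in control and 182 and 190 in knockdown samples. TRIML2 had 27 and 24 against 55 and 55. Both stood far under CDKN1A in level, at 1.63 mean FPKM for TRIML2 and 2.50 for TIMP2 against 92.4.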

How the data were processed

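RNA from RKO cells with control shRNA (2 samples) or CHD7 shRNA-2 (2 samples) was sequenced by the authors after oligo-dT selection. They deposited a matrix of estimated counts per gene, of which 13.6% to 14.7% per sample are not whole, and a matrix of FPKM. The submitters' processing notes name Bowtie2, RSEM, DESeq2 and hg38, without roles or versions, and the use of strand is not given in the sources used here. Deposited estimated counts were rounded and tested across all genes with edgeR 4.0.16 in R 4.3.3 (filterByExpr, TMM factors, quasi-likelihood F-test, Benjamini-Hochberg adjustment over 11955 genes). Intervals are 95% intervals of the log2 fold change. Deposited FPKM served for levels between genes. The totals differ by little, and 3 counts equal 0.187 to 0.193 CPM. The biological coefficient of variation was 0.0579. Alternatives were DESeq2 1.42.0, limma 3.58.1 on log2(FPKM + 1) and log2(FPKM + 0.1) with a mean FPKM of at least 1 or no filter, other scalings and filters, a replicate block and leaving out each sample. The procedure was tested on simulated counts.

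Named genes were all 10 members, CHD7, the genes of 6 pathway lists that were called, or past adjusted p where fewer than 2 of a list were called, and the 3 genes most like CDKN1A, of which 1 is not reported here. Further genes of the lists, such as CDK4, SKP2, CUL4A, DDB1, DTL, E2F1, PCNA, CCNA2, MDM2, MYC, CDKN2B and CDKN2D, were named after their values were seen. The members and lists were chosen with earlier results of these data known. Samples within a group differed by more than sampling noise (chi-square per gene 3.94 in control and 6.06 in knockdown samples). Gene positions are from GENCODE 29, and promoter windows from RefSeq on GRCh38.p14 (7 members matched with windows that were used).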

Additional observations from a re-analysis of the deposited data

How the results depend on the processing

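CDKN1A was called in 13 of 14 alternatives, with log2 fold changes of 0.96 to 1.14. The exception was limma on log2(FPKM + 1) with no filter (1.08, adjusted p = 0.109), which called 8 genes in all, 0 members and 0 genes of the pathway lists (5 of 10 and 23 of 72 at an unadjusted p under 0.05), and in which CHD7 had -0.51 (adjusted p = 0.127). Without the fold threshold 1373 genes, 2 members and 12 list genes passed. DESeq2 called 210 genes, edgeR with no filter on low counts 141 (3 of the lists) and limma with a mean FPKM of at least 1 called 172 on log2(FPKM + 1) and 257 on log2(FPKM + 0.1). CCND1 did not pass adjusted p in DESeq2 (0.22, adjusted p = 0.116) or in edgeR with no filter on low counts (0.21, 0.214). It passed adjusted p with library totals (0.26, adjusted p = 0.0289) and in limma on filtered FPKM + 1 (0.26, 0.0468) and + 0.1 (0.26, 0.0491). CCNE1 missed it with no filter (0.35, 0.0812) and in limma with no filter (0.37, 0.115). Leaving out 1 sample, where the lone sample is assumed to vary like the other group, gave 308 to 380 calls, 3 to 5 list genes, 0.14 to 0.29 for CCND1 and 0.33 to 0.38 for CCNE1. The signs of CCND3 (same in 7 of 14), CCNE2 and RB1 (12 of 14 each) varied, none of them past the threshold.

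The labels do not say what a replicate number marks, and the deviations of same-numbered samples correlated at -0.292. With a replicate block 329 genes were called and CCNE1 had 0.35 with adjusted p = 0.0716. Adjusted p also rose above 0.05 under the block for CCND2 (0.0926), CDK2 (0.0549), E2F7 (0.108), MYBL2 (0.0833), CKS1B (0.115) and RRM2 (0.108). CCND1 had 0.22 with edgeR adjusted p = 0.297 under the block. The crossed pairing, chosen after seeing the data, called 423 genes, and there CCND1 had 0.22 (edgeR adjusted p = 5.15e-05).

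At 1 to 4 counts CDKN2A was too low to test.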
